A study of Mus musculus with 9 samples.

Results

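The 10 genes described here handle iron in the cell and between cells. They are the ferritin subunit genes Fth1 and Ftl1, the uptake genes Trf, Tfrc, Slc11a2 and Slc11a1, the export genes Slc40a1 and Cp, the siderophore-binding gene Lcn2 and the heme-degrading gene Hmox1. They were picked by symbol from the 52550 rows of a deposited expression table, for their place in iron storage and transport and because they were abundant and variable in these libraries. Level and spread are therefore described below without a test, and the choice set no numerical threshold for either.

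RNA sequencing had been done on 9 libraries labelled 4T1, a mouse mammary carcinoma cell line, in 3 groups of 3. The groups were LY500307+PD-1, PD-1 and control. The compound LY500307 activates estrogen receptor beta. PD-1 is a checkpoint receptor of T cells; the labels name the treatment PD-1 and give no antibody, dose or time. For PD-1 replicates 2 and 3 the labelled treatment reads PD-2 and PD-3, and the titles decided their group. The labels do not say whether the 4T1 cells came from culture or from tumours, nor whether replicates came from separate cultures or animals, so the p-values measure the spread between libraries, which may be technical.

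Iron enters most cells as transferrin-bound iron through the transferrin receptor, leaves the endosome through the transporter DMT1, and is stored inside ferritin shells or exported through ferroportin. Iron regulatory proteins bind a short RNA hairpin, the iron responsive element, when iron is scarce. Bound to the start of a transcript, as in the ferritins, they block translation, and bound to its end, as in the transferrin receptor, they protect it from decay. In tumours, macrophages recycle iron from heme and tumour cells often take up and store more of it.

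The unit of the table, inferred from its values, is FPKM, a count of fragments divided by transcript length and by the size of the library. Gene length is thus taken into account, so that levels of different genes can be set side by side. Summed FPKM ran from 348764 to 370214 over the libraries. The steps of low values gave a rough estimate of 8214000 to 8666000 fragments a library, the best score within a preset range. Only 13.9% to 26.3% of low values lay within 0.02 of a whole step, so this depth is uncertain. Epithelial keratin Krt18 was at 621 to 1597 FPKM, but markers of other cell types were present as well: the macrophage gene C1qa at 268 to 843 FPKM, the neutrophil gene S100a9 at 31.8 to 465 FPKM and the hemoglobin gene Hbb-bs at 6.16 to 42.4 FPKM. In such bulk RNA, fewer cells of a type and less RNA per cell cannot be told apart. LY500307+PD-1 replicate 2 stood apart, most clearly in its epithelial markers. The 8 markers summed to 3930 FPKM there, against 1506 to 2553 FPKM in the other libraries. This library was the lowest in 18.9% and the highest in 17.1% of the 13990 genes tested, and its median correlation with the others was 0.955. Control replicates 1 and 3 came near on these measures. They were the lowest in 11.7% and 14.5% and the highest in 16.1% and 15.3% of genes, with median correlations of 0.959 and 0.963. LY500307+PD-1 replicate 2 was also the lowest library for 6 of the 10 iron handling genes. The differences of LY500307+PD-1 from control are therefore given with and without it for the members tested.

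Hairpins that match the iron responsive element were found in 4 of the 10 genes and are shown because they are the shared sequence feature through which these transcripts are known to be controlled. The motif searched was a bulged C, 5 stem bases, the loop CAGTGN and 5 bases that pair with the stem, G-U pairs allowed, on the transcript strand of annotated untranslated regions (GENCODE M21, build GRCm38). The capitals mark the bulged C and the 6 loop bases, and each line gives 30 bases 5′ to 3′, as DNA.

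Fth1 5′ UTR, chr19:9982732-9982761, plus strand: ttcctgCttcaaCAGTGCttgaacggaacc
Ftl1 5′ UTR, chr7:45459778-45459807, minus strand: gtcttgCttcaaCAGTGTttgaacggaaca
Slc40a1 5′ UTR, chr1:45925464-45925493, minus strand: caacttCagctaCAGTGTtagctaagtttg
Tfrc 3′ UTR, chr16:32631219-32631248, plus strand: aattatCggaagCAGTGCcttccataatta
Tfrc 3′ UTR, chr16:32631598-32631627, plus strand: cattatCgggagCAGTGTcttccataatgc
Tfrc 3′ UTR, chr16:32631663-32631692, plus strand: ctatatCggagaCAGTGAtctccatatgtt
Tfrc 3′ UTR, chr16:32631710-32631739, plus strand: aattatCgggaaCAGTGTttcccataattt

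The hairpins of Fth1 and Ftl1 have the same 5 stem bases on each side, ttcaa and ttgaa, and differ in the last loop base. Tfrc holds the motif 4 times in its 3′ untranslated region, all between positions 32631219 and 32631739 of chromosome 16. The motif occurs in the 5′ untranslated region of 31 of 20916 genes (0.148%) and in the 3′ untranslated region of 129 of 21045 genes (0.613%), against 3 and 1 of the 10 iron handling genes. The members were picked as iron genes and the motif as the known control of such transcripts, so these shares are no test of enrichment. A match describes the sequence only, and the absence of one in the other members says only that these letters are not in their annotated untranslated regions.

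**Figure D1:**
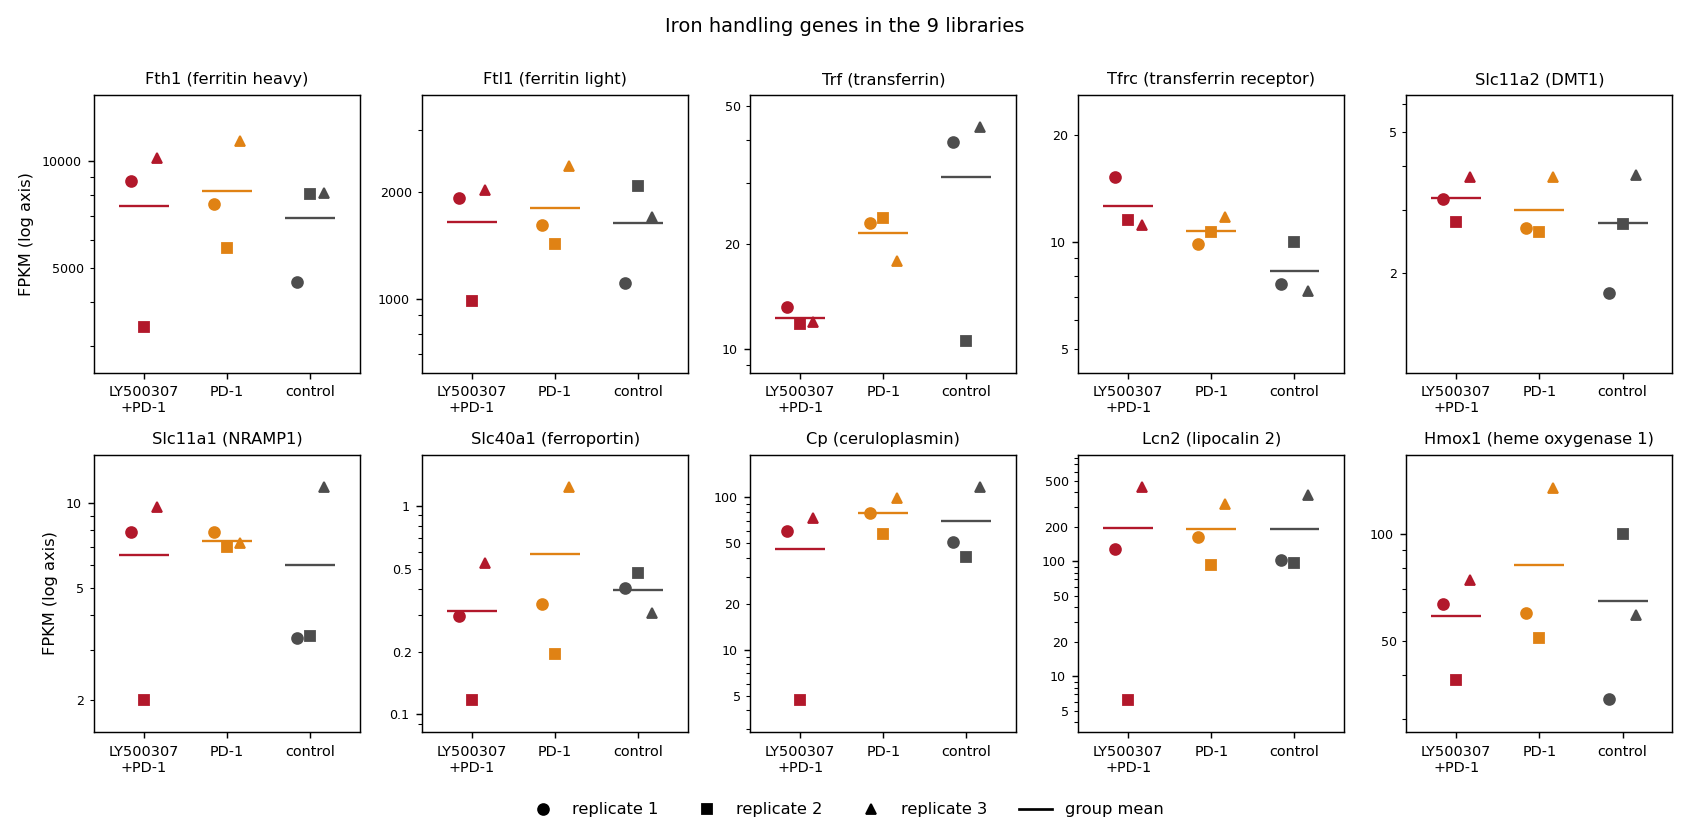
FPKM of the 10 iron handling genes on log axes, 1 panel a gene, with a point for each library (circle, square and triangle for replicates 1, 2 and 3) and a line at the group mean, from left to right LY500307+PD-1, PD-1 and control. LY500307+PD-1 replicate 2 lies far below the other libraries in Lcn2 (6.22 FPKM) and Cp (4.67 FPKM), and Tfrc is the gene in which all LY500307+PD-1 points lie above all control points.

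The plot of FPKM by library shows the levels of all 10 genes. By the mean over the 9 libraries the order was Fth1 (7528 FPKM), Ftl1 (1697), Lcn2 (192), Hmox1 (68.3), Cp (64.5), Trf (21.7), Tfrc (10.6), Slc11a1 (6.64), Slc11a2 (3.00) and Slc40a1 (0.434). Fth1 lay above Ftl1 in every library. Lcn2 ran from 6.22 to 447 FPKM over the libraries and so overlapped with Hmox1 (34.3 to 134) and Cp (4.67 to 117), and Tfrc (7.26 to 15.3) overlapped with both Trf (10.6 to 43.6) and Slc11a1 (2.00 to 11.4). Slc40a1 reached 1 FPKM in a single library and was not tested; the other 9 genes reached 1 FPKM in 3 or more libraries and were tested.

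Fth1 encodes the ferritin heavy subunit, which oxidises iron as it enters the storage shell (chr19:9980598-9985098, plus strand). It was at 8777, 3406 and 10180 FPKM in LY500307+PD-1 replicates 1 to 3, at 7570, 5677 and 11396 FPKM in PD-1 replicates 1 to 3, and at 4557, 8081 and 8105 FPKM in control replicates 1 to 3. The groups overlapped, with the lowest value in LY500307+PD-1 replicate 2 and the highest in PD-1 replicate 3. Fth1 was the gene with the highest FPKM in 8 of 9 libraries and ranked 5 in LY500307+PD-1 replicate 2. It made up between 0.936% (LY500307+PD-1 replicate 2) and 3.08% (PD-1 replicate 3) of the summed FPKM. Its log2 fold change on the log2(FPKM + 1) scale, used for all differences below, was 0.01 (SE 0.43) in LY500307+PD-1 against control, and 0.50 without LY500307+PD-1 replicate 2.

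Ftl1 encodes the ferritin light subunit, which helps to form the mineral core (chr7:45457944-45459884, minus strand). It was at 1925, 986 and 2034 FPKM in LY500307+PD-1 replicates, at 1619, 1430 and 2371 FPKM in PD-1 replicates, and at 1113, 2090 and 1703 FPKM in control replicates. The groups overlapped, and the lowest and highest libraries were the same as for Fth1. Its log2 fold change was -0.01 (SE 0.33) in LY500307+PD-1 against control, and 0.32 without LY500307+PD-1 replicate 2. Ftl1 has 13 other genes that match it at 95% identity or more over at least 100 nt, 7 of which reached 1 FPKM. Among these were Ftl1-ps1 (34.3 to 66.3 FPKM), Ftl2-ps (12.9 to 28.02 FPKM), the microRNA model Gm22133 inside Ftl1 (2558 to 5260 FPKM) and Gm10252 on its opposite strand (638 to 1377 FPKM). How reads were shared among these is not given, so the level of Ftl1 is uncertain. The library kit keeps strand, but whether counting used it is not given in any source used here.

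The ratio of heavy to light ferritin FPKM stayed within narrower limits than either gene. Fth1 over Ftl1 was 4.56, 3.45 and 5.004 in the LY500307+PD-1 libraries, 4.68, 3.97 and 4.81 in the PD-1 libraries and 4.09, 3.87 and 4.76 in the control libraries, a 1.45-fold range. Over the same libraries Fth1 ranged 3.35-fold and Ftl1 2.40-fold. The groups overlapped in the ratio, and the lowest value was again that of LY500307+PD-1 replicate 2.

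Trf encodes transferrin, the iron carrier of the blood, made mainly by hepatocytes and also by other cells (chr9:103204001-103230444, minus strand). It was at 13.2, 11.8 and 11.9 FPKM in LY500307+PD-1 replicates, at 23.04, 23.9 and 17.9 FPKM in PD-1 replicates, and at 39.5, 10.6 and 43.6 FPKM in control replicates. All LY500307+PD-1 values lay below all PD-1 values. Control replicates 1 and 3 were the highest of the 9 libraries, whereas control replicate 2 was the lowest, so that LY500307+PD-1 and control overlapped through that library alone. The mean was 12.3 ± 0.767 FPKM in LY500307+PD-1, 21.6 ± 3.26 FPKM in PD-1 and 31.2 ± 18.01 FPKM in control (SD, n = 3 each).

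In LY500307+PD-1 against control, the Trf difference on the log2 scale was -1.05, with SE 0.44 and a 95% interval of -2.05 to -0.06. The unadjusted p was 0.040 and the Benjamini-Hochberg adjusted p was 1 (limma). It was -1.68 without control replicate 2, and then passed the threshold (limma, adjusted p = 0.028). Over all 14 alternatives of this difference, the adjusted p ran from 0.028 to 1. Without control replicate 1 the log2 fold change was -0.77, and without control replicate 3 it was -0.71. Without LY500307+PD-1 replicate 2 it was -1.03. Against PD-1, the LY500307+PD-1 value was -0.76 (SE 0.44, 95% interval -1.75 to 0.24, limma, adjusted p = 1). PD-1 against control gave -0.30 (SE 0.44), which turned to 0.05 without control replicate 3 and was -0.92 without control replicate 2.

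The 10 hepatocyte markers summed to at most 2.19 FPKM in any library, and Ttr, Fga and Apoc3 were at 0 in all 9. The 6 endothelial markers summed to 33.4 to 44.3 FPKM in LY500307+PD-1, to 44.6 to 62.1 FPKM in PD-1 and to 51.9 to 78.6 FPKM in control. The LY500307+PD-1 sums did not overlap with those of control, and missed those of PD-1 only narrowly (44.3 against 44.6 FPKM). Of single genes tested, 7.94% did not overlap between LY500307+PD-1 and control, and 7.60% between LY500307+PD-1 and PD-1. The 12 macrophage markers summed to 936 to 1641 FPKM in LY500307+PD-1, to 1225 to 1665 FPKM in PD-1 and to 837 to 2730 FPKM in control. Control replicate 2, lowest in Trf, had the lowest macrophage sum, and control replicate 3, highest in Trf, had the highest. The libraries between them did not all follow this order. LY500307+PD-1 replicate 1 had a macrophage sum of 1641 FPKM with Trf at 13.2 FPKM, and control replicate 1 had 1553 FPKM with Trf at 39.5 FPKM. The part of endothelial cells and macrophages in the Trf values was not tested.

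Tfrc encodes the transferrin receptor, the main gate for iron into dividing cells (chr16:32608920-32632794, plus strand). It was at 15.3, 11.5 and 11.2 FPKM in LY500307+PD-1 replicates, at 9.86, 10.6 and 11.8 FPKM in PD-1 replicates, and at 7.58, 9.98 and 7.26 FPKM in control replicates. Every LY500307+PD-1 library was above every control library, and PD-1 overlapped with both. The means were 12.6 ± 2.28 FPKM in LY500307+PD-1, 10.8 ± 0.950 FPKM in PD-1 and 8.27 ± 1.49 FPKM in control (SD, n = 3 each).

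In LY500307+PD-1 against control, the Tfrc difference was 0.56 on the log2 scale, with SE 0.16, a 95% interval of 0.20 to 0.91, an unadjusted p of 0.0062 and an adjusted p of 1 (limma, Benjamini-Hochberg). It was 0.61 without the LY500307+PD-1 library that stood apart, and between 0.42 and 0.68 whichever library was left out. PD-1 against control gave 0.35 (SE 0.16, 95% interval -0.00 to 0.71), and LY500307+PD-1 against PD-1 gave 0.21 (SE 0.16, 95% interval -0.15 to 0.56). None of these passed the adjusted threshold. Erythroid precursors carry much transferrin receptor; the 8 erythroid markers summed to 24.7 to 66.1 FPKM in LY500307+PD-1, to 82.1 to 136.6 FPKM in PD-1 and to 54.1 to 90.8 FPKM in control. Rhag, among them, was at 0 in every library. The part of erythroid cells in the Tfrc values was not tested.

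Slc11a2 encodes DMT1, which moves iron out of the endosome (chr15:100387898-100425072, minus strand). It was at 3.24, 2.78 and 3.73 FPKM in LY500307+PD-1 replicates, at 2.67, 2.61 and 3.73 FPKM in PD-1 replicates, and at 1.76, 2.74 and 3.78 FPKM in control replicates. Replicate 3 was the highest of each group and the groups overlapped. The log2 fold change was 0.21 (SE 0.21) in LY500307+PD-1 against control, and 0.29 without LY500307+PD-1 replicate 2. Slc11a2 overlaps Gm5475 on the opposite strand, so reads of the pair may be mixed.

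Slc11a1 encodes NRAMP1, the metal transporter of the phagosome in macrophages and neutrophils (chr1:74375195-74386062, plus strand). It was at 7.87, 2.00 and 9.69 FPKM in LY500307+PD-1 replicates, at 7.86, 6.95 and 7.24 FPKM in PD-1 replicates, and at 3.33, 3.37 and 11.4 FPKM in control replicates. The PD-1 libraries lay close together, whereas the other groups each held low and high libraries. Its log2 fold change was 0.09 (SE 0.52) in LY500307+PD-1 against control and 0.66 without LY500307+PD-1 replicate 2. Control replicate 3, the highest in Slc11a1, had the highest macrophage sum (2730 FPKM). LY500307+PD-1 replicate 2, the lowest, had a macrophage sum of 936 FPKM. Control replicate 1, with Slc11a1 at 3.33 FPKM, had a macrophage sum of 1553 FPKM. The part of macrophages in the Slc11a1 values was not tested.

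Slc40a1 encodes ferroportin, the only known iron exporter of mammalian cells (chr1:45908068-45926523, minus strand). It was at 0.296, 0.117 and 0.531 FPKM in LY500307+PD-1 replicates, at 0.338, 0.195 and 1.24 FPKM in PD-1 replicates, and at 0.404, 0.476 and 0.307 FPKM in control replicates. PD-1 replicate 3 stood above all others and LY500307+PD-1 replicate 2 was the lowest. These levels rest on few fragments, and Slc40a1 was the member with the lowest mean.

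Cp encodes ceruloplasmin, the copper enzyme that oxidises iron as it leaves the cell and an acute phase protein (chr3:19957054-20009145, plus strand). It was at 59.6, 4.67 and 72.5 FPKM in LY500307+PD-1 replicates, at 78.9, 57.1 and 99.1 FPKM in PD-1 replicates, and at 50.6, 40.5 and 117.1 FPKM in control replicates. LY500307+PD-1 replicate 2 was far below the other 8 libraries, and the groups overlapped. LY500307+PD-1 differed by a log2 value of -1.11 (SE 0.87) when set against control and of -1.40 (SE 0.87) when set against PD-1. Without LY500307+PD-1 replicate 2 these were 0.08 and -0.22. Cp overlaps Hps3 on the opposite strand.

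Lcn2 encodes lipocalin 2, which binds iron-loaded siderophores and is made by neutrophils, macrophages and inflamed epithelium (chr2:32384633-32388252, minus strand). It was at 127.4, 6.22 and 446.7 FPKM in LY500307+PD-1 replicates, at 161.9, 93.8 and 316.8 FPKM in PD-1 replicates, and at 102.2, 97.3 and 378.8 FPKM in control replicates. Replicate 3 was the highest of each group, LY500307+PD-1 replicate 2 was far below all others, and the groups overlapped. The group means were close, at 193 ± 228 FPKM in LY500307+PD-1, 191 ± 114 FPKM in PD-1 and 193 ± 161 FPKM in control (SD, n = 3 each). Its highest library was 71.8-fold above its lowest, the widest range of the 10 genes.

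In LY500307+PD-1 against control, the Lcn2 difference on the log2 scale was -1.07, with SE 1.31 and a 95% interval of -4.03 to 1.89, and 0.61 without LY500307+PD-1 replicate 2. The 10 neutrophil markers summed to 207 to 424 FPKM in LY500307+PD-1, to 164 to 752 FPKM in PD-1 and to 242 to 315 FPKM in control. This sum was 243 FPKM in LY500307+PD-1 replicate 2, of which Mmp9 made up 186 FPKM, its highest value of all libraries. S100a8 (15.9 FPKM), S100a9 (31.8), Retnlg (1.54), Mmp8 (0.0966) and Ngp (0) had their lowest values there, whereas Csf3r (5.34) and Cxcr2 (1.95) did not. The part of neutrophils in the Lcn2 values was not tested.

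Hmox1 encodes heme oxygenase 1, which frees iron from heme (chr8:75093621-75100589, plus strand). It was at 63.3, 38.6 and 74.3 FPKM in LY500307+PD-1 replicates, at 59.8, 50.7 and 134 FPKM in PD-1 replicates, and at 34.3, 100.1 and 58.9 FPKM in control replicates. PD-1 replicate 3 and control replicate 2 were the highest, control replicate 1 was the lowest, and the groups overlapped. The log2 fold change was -0.05 (SE 0.46) for LY500307+PD-1 against control, and turned to 0.22 without LY500307+PD-1 replicate 2. PD-1 against control gave 0.33 (SE 0.46), or -0.09 without PD-1 replicate 3, and LY500307+PD-1 against PD-1 gave -0.38 (SE 0.46), or 0.04 without that library.

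**Figure D2:**
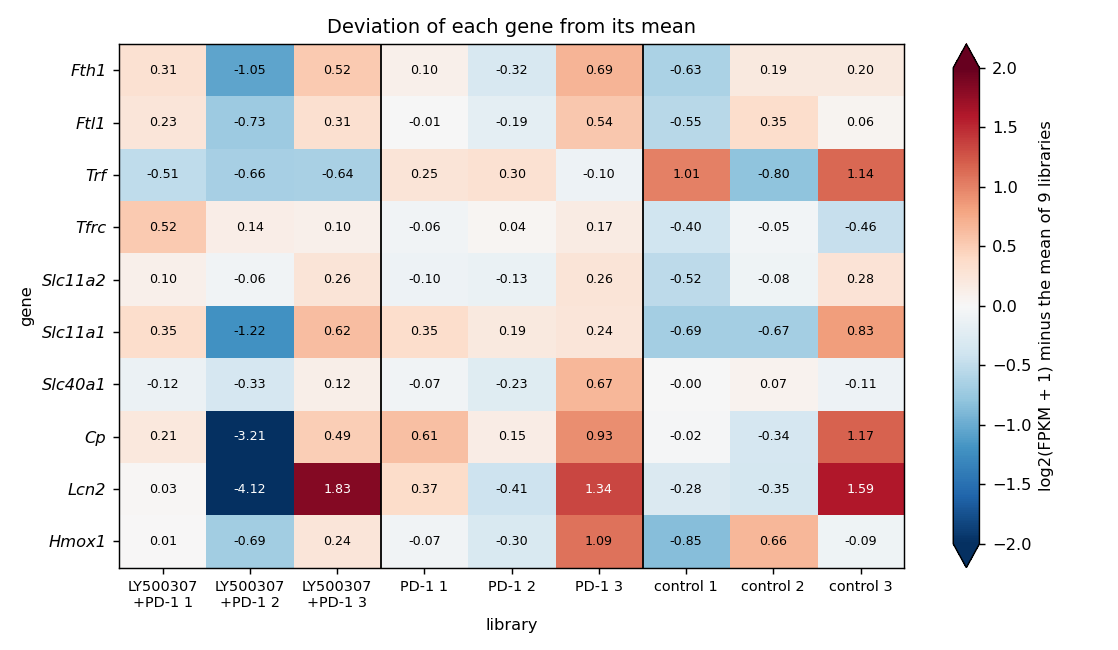
Each gene (rows) in each library (columns, from left to right LY500307+PD-1, PD-1 and control) as log2(FPKM + 1) minus its mean over the 9 libraries, red above and blue below the mean, with the value printed. LY500307+PD-1 replicate 2 is below the mean in 9 genes and above it in Tfrc (0.14), and PD-1 replicate 3 is above it in 9 genes and below it in Trf (-0.10).

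The spread between libraries was mostly within groups. On the log2 scale, the standard deviation over the 9 libraries was 1.77 for Lcn2 and 1.29 for Cp. The median over all genes tested was 0.21, and all 9 members tested were above it. As the members were picked partly for being variable in these libraries, that count is no result about them. The plot of deviations shows that single libraries, not groups, carried the largest ones. The share of a gene's variance that lay between groups was 67.0% for Tfrc, 41.8% for Trf and 24.6% for Cp, and between 3.68% (Ftl1) and 12.3% (Slc11a2) for the other members tested. The median over all genes tested was 17.0%, and 6 of the 9 members tested were below it.

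In LY500307+PD-1 against control, 0 of the 9 members tested passed an adjusted p of 0.05 (limma, Benjamini-Hochberg), as did 0 of all 13990 genes (0%), whose smallest adjusted p was 0.386. Without adjustment, 2 of the 9 members stood under 0.05, Tfrc higher and Trf lower, against 561 of 13990 genes (4.01%), with 1.78% higher and 2.23% lower. Groups did not overlap in 1 of the 9 members, Tfrc, which was higher; this was so for 7.94% of all genes, with 3.61% higher. The log2 fold change was above 0 in 4 of the 9 members and in 49.4% of all genes. The median of the members was -0.01, against -0.00 over all genes.

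In PD-1 against control, 0 of the 9 members passed (limma, Benjamini-Hochberg), as did 0 of all genes (0%), whose smallest adjusted p was 0.231. No member had an unadjusted p under 0.05, against 342 of all genes (2.44%), and no member had groups that did not overlap, against 6.68% of all genes. The log2 fold change was above 0 in 8 of the 9 members, all but Trf, and in 48.3% of all genes. The median of the members was 0.24, against -0.01 over all genes. Without PD-1 replicate 3, the highest library for 4 members, the log2 fold change was -0.03 for Fth1, -0.06 for Ftl1, -0.34 for Lcn2 and -0.01 for Slc11a2. The members shared their high and low libraries, as the correlations below show.

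In LY500307+PD-1 against PD-1, 0 of the 9 members passed (limma, Benjamini-Hochberg), as did 0 of all genes (0%), whose smallest adjusted p was 0.911. No member had an unadjusted p under 0.05, against 398 of all genes (2.84%). Groups did not overlap in 1 of the 9 members, Trf, which was lower, against 7.60% of all genes, with 4.06% lower. The log2 fold change was above 0 in Tfrc and Slc11a2 alone, against 51.0% of all genes, and the median of the members was -0.34, against 0.00 over all genes. Without LY500307+PD-1 replicate 2 it turned to 0.26 for Fth1, 0.17 for Ftl1, 0.50 for Lcn2 and 0.22 for Slc11a1. The 3 comparisons share libraries pairwise, so they are not independent of each other.

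**Figure D3:**
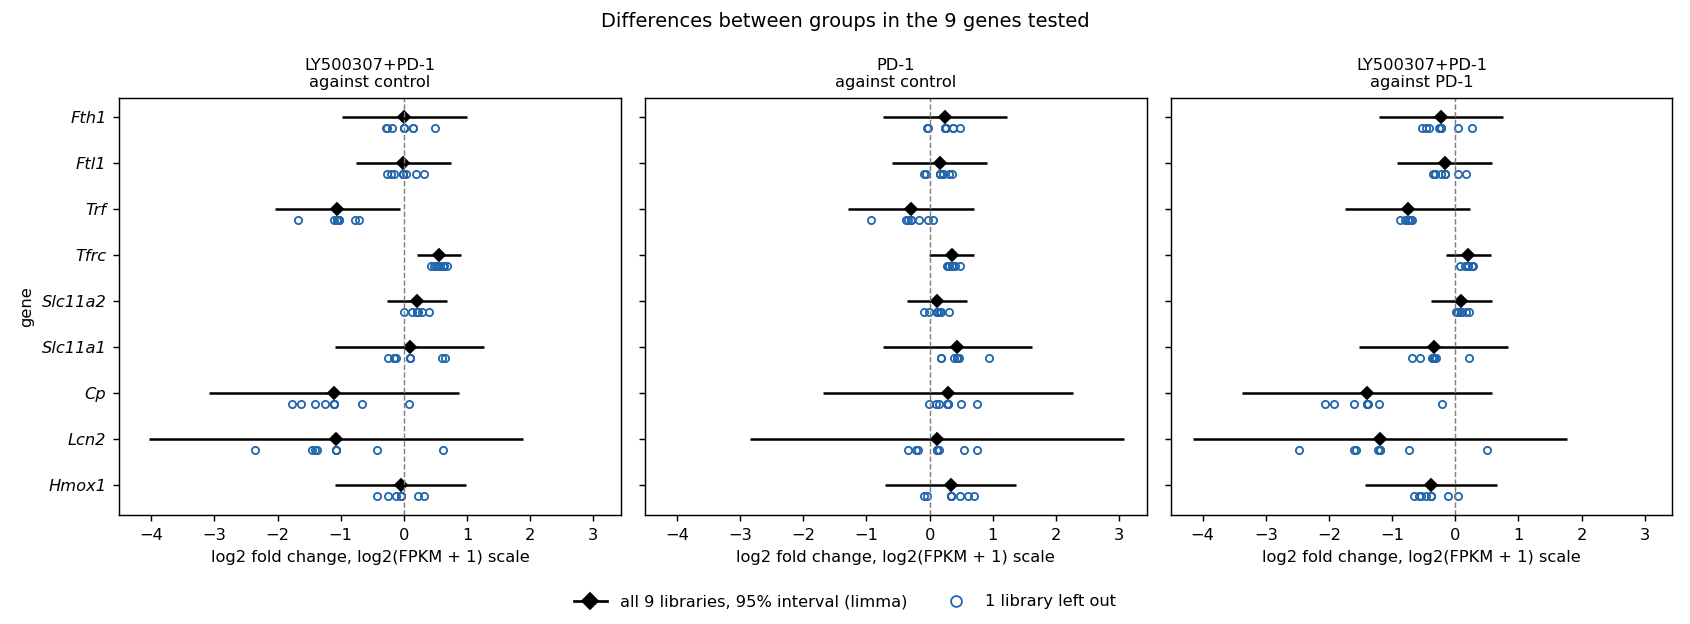
Log2 fold changes of the 9 genes tested, on the log2(FPKM + 1) scale, by panel for LY500307+PD-1 against control, PD-1 against control and LY500307+PD-1 against PD-1; diamonds and lines give the fit to all 9 libraries with its 95% interval, and open circles the fits that leave out 1 library. Tfrc (0.56) and Trf (-1.05) in LY500307+PD-1 against control are the 2 differences whose interval does not reach 0, and neither passed the adjusted threshold.

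The plot of differences shows how far each value depended on single libraries. Of the 27 differences, 18 changed sign when 1 library was left out, and 9 kept their sign in every alternative. Those of Tfrc stayed above 0 in all 3 comparisons. The LY500307+PD-1 values of Trf stayed below 0, from -1.68 to -0.71 against control and from -0.88 to -0.68 against PD-1.

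**Figure D4:**
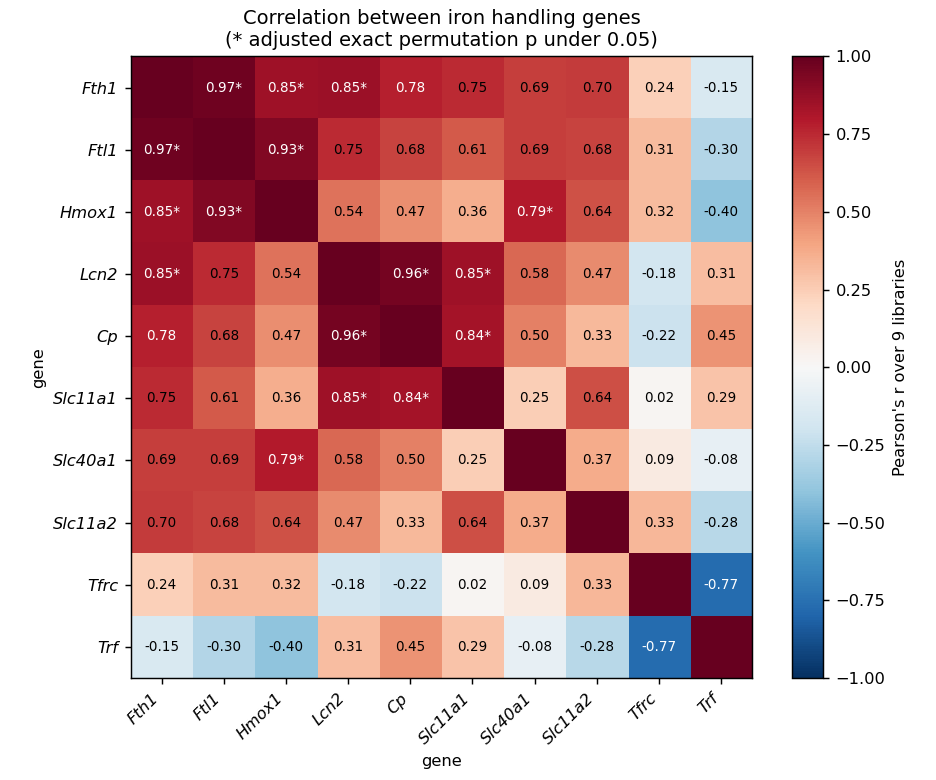
Pearson's r between the 10 genes over the 9 libraries, on log2(FPKM + 1), red for positive and blue for negative values; asterisks mark exact permutation p-values under 0.05 after adjustment over 45 pairs. Values are high among the ferritins and Hmox1 (0.85 to 0.97) and among Lcn2, Cp and Slc11a1 (0.84 to 0.96). These sets are not separate, as values between them run from 0.36 (Slc11a1 and Hmox1) to 0.85 (Lcn2 and Fth1). Trf and Tfrc have the most negative value (-0.77).

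Some pairs of members varied together across libraries. The map of correlations covers the 45 pairs of genes over 9 libraries, with exact two-sided permutation p-values (362880 orders) adjusted over the 45 pairs by Benjamini-Hochberg. By Pearson's r 8 pairs passed an adjusted 0.05 and by Spearman's rho 2 did. Of the 45 values of r, 37 were above 0 and the median was 0.47, or 0.44 without LY500307+PD-1 replicate 2. The same counts were not made over pairs of other genes, and the members were picked partly for being variable. These counts therefore do not show that members vary together more than other genes do. All values of a library share the same total, in which Fth1 alone takes up to 3.08%.

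The pair Fth1 and Ftl1 had r = 0.97 (exact permutation p = 3.9e-05, adjusted 0.0017) and rho = 0.90 (adjusted 0.046). Without the 2 libraries farthest from the median of Fth1, LY500307+PD-1 replicate 2 and control replicate 1, r was 0.91, and with values centred by group it was 0.97. Ftl1 was the gene with the sixth highest r with Fth1 of all genes tested. Ftl1 and Hmox1 had r = 0.93 (exact permutation p = 3.9e-04, adjusted 0.0072) and rho = 0.97 (adjusted 0.0074), and r = 0.91 without the same pair of libraries. Fth1 and Hmox1 had r = 0.85 (exact permutation, adjusted p = 0.025), rho = 0.85 (adjusted 0.055) and r = 0.74 without those libraries. PD-1 replicate 3 was at the top of all 3 genes.

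Lcn2 and Cp had r = 0.96 (exact permutation p = 0.0012, adjusted 0.010) and rho = 0.85 (adjusted 0.055). Without LY500307+PD-1 replicates 2 and 3, the libraries farthest from the median of Lcn2, r was 0.95, and without LY500307+PD-1 replicate 2 alone it was 0.82. Lcn2 and Slc11a1 had r = 0.85 (exact permutation, adjusted p = 0.010), rho = 0.85 (adjusted 0.055) and r = 0.70 without the same 2 libraries. Cp and Slc11a1 had r = 0.84 (exact permutation, adjusted p = 0.0072), rho = 0.83 (adjusted 0.062) and r = 0.74 without LY500307+PD-1 replicate 2 and control replicate 3. The relations of these 3 genes thus passed on Pearson's r and missed the threshold on ranks. By r with Lcn2, Cp was in place 4 and Slc11a1 in place 248 of all genes tested. By r with Cp, Slc11a1 was in place 291, so many genes outside the members were more alike.

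The other pairs that passed rested more on single libraries. Lcn2 and Fth1 had r = 0.85 (exact permutation, adjusted p = 0.018), rho = 0.78 (adjusted 0.11) and r = 0.63 without LY500307+PD-1 replicates 2 and 3. Slc40a1 and Hmox1 had r = 0.79 (exact permutation, adjusted p = 0.046), rho = 0.68 (adjusted 0.16) and r = 0.42 without LY500307+PD-1 replicate 2 and PD-1 replicate 3. Of all genes tested, Fth1 was in place 213 by r with Lcn2, and Hmox1 in place 132 by r with Slc40a1. Trf and Tfrc, ligand and receptor, had r = -0.77 (exact permutation p = 0.014, adjusted 0.058) and rho = -0.58 (adjusted 0.27). Without control replicates 1 and 3, r was -0.26, so this relation rests on those libraries.

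**Figure D5:**
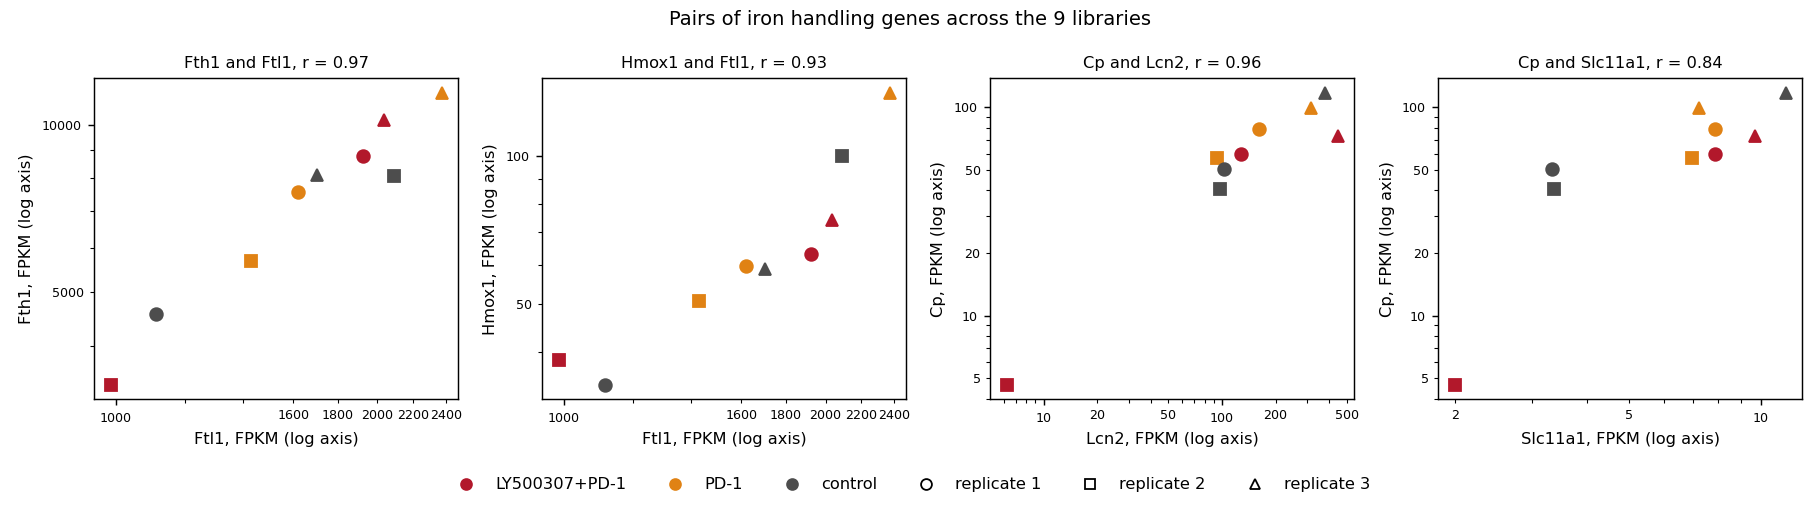
FPKM of 4 pairs of genes on log axes, a point for each library, coloured by group (LY500307+PD-1, PD-1, control) and shaped by replicate number. Fth1 follows Ftl1 (r = 0.97) and Hmox1 follows Ftl1 (r = 0.93) over the whole range, while in Cp with Lcn2 (r = 0.96) and Cp with Slc11a1 (r = 0.84) LY500307+PD-1 replicate 2 lies far from the rest.

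The scatter of pairs shows the difference in shape: the 9 points of the ferritins and Hmox1 are spread along a line, whereas those of Cp, Lcn2 and Slc11a1 hold 1 library at the low end. In every pair the points of the 3 groups are intermixed.

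Genes whose pattern was most like each member's were listed by the highest r over the 9 libraries among 4604 genes (4605 for members with a lower mean) with a mean of at least 10 FPKM, as a description. For the ferritins the most alike was Rnf11, with r = 0.98 for both Fth1 and Ftl1. The next for Fth1 were Ftl1 and Map2k1 (0.96), and for Ftl1 Fth1 and Luc7l2 (0.97). Lcn2 was most like Mfge8 (0.97), Saraf (0.96) and Cp (0.96), and Cp most like Saraf (0.98), Coro6 (0.98) and Lhfpl2 (0.97). All of these had their lowest value in LY500307+PD-1 replicate 2, as the members did.

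Trf was most like Slc9a3r2 (r = 0.93), Prkcd (0.93) and Cmtm6 (0.92), whose values were highest in control replicate 3, as those of Trf were. Tfrc was most like Qars (0.93), Zmynd19 (0.87) and Efr3a (0.87). Slc11a1 was most like Ckb (0.97), Itgax (0.96) and Tm2d3 (0.96), which were highest in control replicate 3 and lowest in LY500307+PD-1 replicate 2. Hmox1 was most like Vps35 (0.95), Cdkn2c (0.94) and Nab1 (0.94), highest in PD-1 replicate 3 and lowest in control replicate 1. Slc11a2 was most like Slc3a2 (0.97), Dusp1 (0.94) and Clic4 (0.93), and Slc40a1 most like Rpl34 (0.96), Ssr3 (0.94) and Hilpda (0.94).

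The rest of iron metabolism was examined in 6 gene lists, and 0 of their tested genes passed an adjusted p of 0.05 in any comparison (limma, Benjamini-Hochberg). Among the 6 iron regulatory proteins and sensors, all tested, none had an unadjusted p under 0.05. Pcbp1, an iron chaperone that loads ferritin, had the highest mean of this list, at 182, 175 and 169 FPKM in LY500307+PD-1, at 176, 183 and 177 FPKM in PD-1, and at 163, 163 and 187 FPKM in control. Ncoa4, the receptor that takes ferritin to the lysosome, was at 8.08, 7.42 and 8.18 FPKM in LY500307+PD-1, at 12.1, 9.59 and 9.45 FPKM in PD-1, and at 11.4, 7.36 and 8.73 FPKM in control. All LY500307+PD-1 values of Ncoa4 lay below all PD-1 values, as was so for 4.06% of all genes tested. The log2 difference was -0.35 (SE 0.16, limma, unadjusted p = 0.057). The summed FPKM of this list, most of it from Pcbp1 and Pcbp2, ran from 325 to 361 over the 9 libraries. The sum over the 10 iron handling genes, most of it from Fth1 and Ftl1, ran from 4470 to 14359. As the iron handling genes were picked partly for being variable in these libraries, their wider range is no result about them.

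Of 9 tested genes of iron uptake, reduction and oxidation, Steap1, a metalloreductase, had the smallest p. It was at 11.9, 14.2 and 12.6 FPKM in LY500307+PD-1, at 9.95, 14.6 and 14.9 FPKM in PD-1, and at 6.48, 10.7 and 9.29 FPKM in control. Its log2 fold change was 0.52 (SE 0.20) in LY500307+PD-1 against control and 0.53 (SE 0.20) in PD-1 against control. Ltf, the iron-binding lactoferrin of neutrophil granules and milk, had the highest mean of the list and was uneven: it was at 6.52, 0 and 51.8 FPKM in LY500307+PD-1, at 1.87, 0.883 and 4.66 FPKM in PD-1, and at 1.12, 0.877 and 80.7 FPKM in control. As in Lcn2, replicate 3 was the highest of each group.

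Of the 8 tested genes of heme synthesis, 5 had a log2 fold change above 0 in LY500307+PD-1 against control and 3 in PD-1 against control. Alad, an early enzyme of the pathway with the highest mean of this list, had log2 fold changes of 0.04 (SE 0.16) in LY500307+PD-1 against control and 0.0045 (SE 0.16) in PD-1 against control. Of 11 tested genes of heme and hemoglobin handling, 6 had a log2 fold change above 0 in each comparison and none an unadjusted p under 0.05. Slc48a1, a lysosomal heme transporter, had the highest mean at 35.5 FPKM. Cd163, the hemoglobin scavenger receptor of macrophages, was at 2.37, 12.1 and 0.769 FPKM in LY500307+PD-1, at 0.281, 1.65 and 1.67 FPKM in PD-1, and at 0.583, 0.884 and 0.508 FPKM in control, with its highest value in the library that stood apart.

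Of 12 tested genes of mitochondrial iron and iron-sulfur clusters, none had an unadjusted p under 0.05. Iscu, the cluster scaffold, had a log2 fold change of -0.20 (SE 0.11) in LY500307+PD-1 against control. Of 5 tested systemic regulators, Tmprss6, which cleaves the hemojuvelin co-receptor, had the highest mean at 65.0 FPKM. Bmp2, a ligand that induces hepcidin in liver, had a log2 fold change of -0.48 (SE 0.23) in LY500307+PD-1 against control. Hamp2, a hepcidin gene, and Ftmt, the mitochondrial ferritin, were at 0 in every library.

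Expression programmes that share members with iron biology were examined in the same way, and 0 of their tested genes passed (limma, Benjamini-Hochberg). Among 11 tested genes of the NRF2 list, the regulator itself and its targets, to which the ferritins and Hmox1 are also known to belong, the median log2 fold change was -0.01 for LY500307+PD-1 against control, 0.01 for PD-1 against control and -0.06 for LY500307+PD-1 against PD-1. Prdx1, a peroxiredoxin, had the highest mean at 110.2 FPKM. Nfe2l2, which encodes NRF2, had a log2 fold change of -0.28 (SE 0.12) in LY500307+PD-1 against control. Among 12 genes of hypoxia and glycolysis, Pgk1 had the highest mean at 398 FPKM, and Vegfa, the angiogenic factor, had a log2 fold change of -0.61 (SE 0.23) in LY500307+PD-1 against control.

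The 8 tested acute phase and inflammatory genes, a programme to which Lcn2 and Cp are often assigned, had a median log2 fold change of -0.13 for LY500307+PD-1 against control, 0.20 for PD-1 against control and -0.36 for LY500307+PD-1 against PD-1. C3, the complement component with the highest mean, was at 98.2, 19.7 and 145.8 FPKM in LY500307+PD-1, at 88.1, 105.1 and 133.7 FPKM in PD-1, and at 40.6, 88.0 and 273 FPKM in control. Like Cp, C3 had its lowest value in LY500307+PD-1 replicate 2 and its highest in control replicate 3. Nfkbiz, an inducible NF-kB co-regulator, had a log2 fold change of 0.36 (SE 0.19) in PD-1 against control.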

How the data were processed

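The authors deposited one table of 52550 Ensembl genes by 9 libraries, taken to be FPKM from its values. Per the labels' protocols, total RNA was depleted of ribosomal RNA and made into stranded libraries. Bowtie2, CASAVA 1.8, DESeq2 and the build mm9 appear in the submitters' processing notes without a stated role; which tool counted, with which annotation and strand setting, is not given in the sources used here. Symbols, positions and untranslated regions came from GENCODE M21 (GRCm38), and IDs were matched without their version.

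The 13990 genes that reached 1 FPKM in 3 or more libraries were fitted as log2(FPKM + 1) with limma 3.58.1 in R 4.3.3 (trend and robust options, all 9 libraries, 3 groups, no covariate), with calls at an adjusted p (Benjamini-Hochberg) under 0.05; the fit was tested on simulated data. A fold change on this scale understates the change of low genes. Between 13.9% and 26.3% of low values lay within 0.02 of a whole step, so whole reads were not recovered and no count test was run.

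Correlations were computed in Python 3.11.15 (pandas 2.3.3, numpy 2.4.6, scipy 1.17.1), near-identical copies were found with BLAST 2.17.0, and matplotlib 3.10.9 drew the figures. Members and lists were chosen with earlier results of these data known. Besides the members, the rule named the 3 most alike genes of each, the highest and smallest-p gene of each pathway list, and the highest marker of a cell type. Some genes this rule names are not reported here. Alternatives were quantile normalization, no filter, a pseudocount of 0.1, only the 6 libraries compared, the replicate number as a block, values centred by group, and each library left out.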

Additional observations from a re-analysis of the deposited data

How the results depend on the processing

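Over all genes, 0 were called in each comparison with quantile normalization, no filter, a pseudocount of 0.1, only the 6 libraries compared and the replicate number as a block. Same-numbered libraries deviated from their group means together by r = -0.12, 0.13 and 0.27 (LY500307+PD-1 with control), 0.16, -0.01 and 0.02 (PD-1 with control), and 0.01, 0.09 and 0.09 (LY500307+PD-1 with PD-1), so they were not taken as pairs, and the block changed no call. Leaving out 1 library gave 0 to 2 genes in LY500307+PD-1 against control, 0 to 1 in PD-1 against control and 0 to 2 in LY500307+PD-1 against PD-1 (limma, adjusted p under 0.05). Of the iron handling genes, 0 to 1 were called in LY500307+PD-1 against control (Trf, without control replicate 2) and 0 in the others. Of 378 alternatives of the 27 differences, that was the 1 called. Quantile normalization turned Fth1 to -0.36 in LY500307+PD-1 against control and to 0.00 in PD-1 against control; it gives the highest gene of each library the same value, and Fth1 held that place in 8 of 9. Pairs called correlated were 8, but 4 with quantile normalization, 2 by rank and 3 to 13 when 1 library was left out, 3 without LY500307+PD-1 replicate 2 and 13 without control replicate 2; the cause was not tested.

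Signs turned without LY500307+PD-1 replicate 2 in 8 differences, without PD-1 replicate 3 in 8, without control replicate 1 in 7 and without control replicate 2 in 5. Log2 fold changes of LY500307+PD-1 against control ran over these fits from -2.36 to 0.61 (Lcn2), -1.77 to 0.077 (Cp), -0.29 to 0.50 (Fth1), -0.27 to 0.32 (Ftl1), -0.26 to 0.66 (Slc11a1) and -0.43 to 0.33 (Hmox1). In PD-1 against control they ran from -0.34 to 0.75 (Lcn2), -0.011 to 0.74 (Cp), -0.038 to 0.47 (Fth1), -0.10 to 0.36 (Ftl1), -0.093 to 0.71 (Hmox1), -0.090 to 0.31 (Slc11a2) and -0.92 to 0.051 (Trf). In LY500307+PD-1 against PD-1 they ran from -2.48 to 0.50 (Lcn2), -0.53 to 0.26 (Fth1), -0.36 to 0.17 (Ftl1), -0.69 to 0.22 (Slc11a1) and -0.65 to 0.040 (Hmox1). With 3 libraries a group and a median SE of 0.17, the precision of a difference is set by the spread between libraries, and Slc40a1 was too low to test.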
